A study of Mus musculus with 6 samples.

Results

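The small heat shock protein genes Hspb1, Hspb2, Hspb3, Hspb6, Hspb7, Hspb8 and Cryab, together with the co-chaperone gene Bag3, were followed in the gastrocnemius muscle of mice with and without a C26 tumor. The genes were chosen by symbol, and 8 of 8 were found by their Entrez identifiers among the 13363 genes listed. Expression was measured by RNA sequencing in 3 C26 libraries and 3 Control libraries. The C26 mice were male Balb/c animals that received 500000 cells of the mouse colon adenocarcinoma line C26 under the skin of the right flank, a transplanted tumor that causes muscle wasting. The Control mice came from the same stock, 6 weeks old at purchase and given 1 week to adapt, and carried no inoculum. No drug, transgene or deletion was part of either group. The study set wasting muscle against normal muscle, and that comparison is given here for the chaperones that hold unfolded muscle proteins and for the co-chaperone that passes those proteins on.

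Small heat shock proteins are ATP-independent chaperones that bind partly unfolded proteins and keep them from aggregating. In striated muscle they sit on actin, desmin and the Z-disc, and several are abundant at rest. BAG3 ties small heat shock proteins to the ATP-driven chaperone HSP70 and can hand damaged filamin and other client proteins to autophagosomes, a route known as chaperone-assisted selective autophagy. Transcription of many of these genes is driven by the factor HSF1 through heat shock elements, which are built of inverted repeats of the unit nGAAn.

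Values are FPKM, fragments per kilobase of transcript scaled to the mapped reads of a library, which allow levels to be compared between genes because length is divided out. The depth behind each value is unknown, so that precision can be judged only from the spread between mice. Fold changes were calculated with limma on log2(TPM + 1), where TPM is the FPKM rescaled to a common total and normalised by the trimmed mean of M-values, and adjusted p-values are from limma with Benjamini-Hochberg adjustment over all 13363 genes. A gene was called higher or lower at an adjusted p under 0.05. The summed FPKM of the listed genes was 531061 to 585169 in the C26 libraries and 626992 to 688300 in the Control libraries. The muscle creatine kinase gene Ckm, listed with the fast fibre markers, stood at 14314 to 18555 FPKM in C26 and at 25124 to 26160 FPKM in Control. Every library thus carried an abundant muscle transcript. Summed fast fibre markers were lower in C26, at 118266 to 195952 normalised TPM against 236653 to 253237 for 10 genes. Of these, 3 were called lower and 0 higher, beside 14.5% and 19.4% of all genes, while 4 had a log2 fold change above 0. These 4 were the myosin heavy chain genes Myh4, Myh1 and Myh2, at 0.23, 2.13 and 0.34, and Atp2a1 at 0.05. Myh1 was at 92.8, 331 and 118 FPKM in Control and at 299, 254 and 2555 FPKM in C26. Calls among the 10 genes were 6 lower with FPKM as deposited, and 3 higher and 3 lower with quantile normalization. They numbered 0 without C26 replicate 1 or without Control replicate 1. A fall in the share of a cell type and a fall in RNA per cell cannot be told apart in whole muscle.

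The 250 bases upstream of the RefSeq start site are given for the 4 genes called changed, because heat shock factors act through sequences near such starts. Each is written 5′ to 3′ on the strand of the gene on GRCm38.p6, and capitals mark GAANNTTC, which holds 2 inverted units of the heat shock element. The reverse form TTCNNGAA was searched as well and each pattern is its own reverse complement, so that both strands were covered. All matches given here are of the first form.
Hspb1 (chr5:135887669-135887918, plus strand): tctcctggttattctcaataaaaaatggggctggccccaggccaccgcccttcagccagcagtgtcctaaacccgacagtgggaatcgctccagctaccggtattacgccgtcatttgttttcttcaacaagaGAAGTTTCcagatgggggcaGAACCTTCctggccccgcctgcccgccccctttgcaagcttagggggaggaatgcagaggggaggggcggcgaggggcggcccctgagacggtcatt
Hspb7 (chr4:141420529-141420778, plus strand): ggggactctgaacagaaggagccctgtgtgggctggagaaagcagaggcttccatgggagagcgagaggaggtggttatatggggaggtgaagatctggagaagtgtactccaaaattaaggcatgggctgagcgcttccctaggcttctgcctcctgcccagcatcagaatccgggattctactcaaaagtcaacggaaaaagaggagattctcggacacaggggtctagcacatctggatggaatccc
Bag3 (chr7:128523333-128523582, plus strand): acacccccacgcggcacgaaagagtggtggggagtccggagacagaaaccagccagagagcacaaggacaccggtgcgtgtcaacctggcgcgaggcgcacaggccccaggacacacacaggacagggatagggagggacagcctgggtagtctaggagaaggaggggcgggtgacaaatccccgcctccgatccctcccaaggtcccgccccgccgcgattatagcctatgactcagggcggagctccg
Hspb3 (chr13:113663677-113663926, minus strand): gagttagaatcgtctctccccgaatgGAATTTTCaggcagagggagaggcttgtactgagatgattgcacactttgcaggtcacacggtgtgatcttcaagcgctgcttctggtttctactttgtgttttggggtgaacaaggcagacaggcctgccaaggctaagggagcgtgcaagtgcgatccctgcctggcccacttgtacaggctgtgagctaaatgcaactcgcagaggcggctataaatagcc
Matches stood in the upstream sequence of Hspb1 at -117 and -97 from the start site and in that of Hspb3 at -224, while the sequences of Hspb7 and Bag3 held none. RefSeq windows of 300 bases, from 250 bases before to 50 bases after the start, were given for 6 of the 8 genes. They were 7 windows, since Hspb6 had 2. A match was found in 5 of the 7 windows, 1 for each of 5 genes, against 15.1% of 32851 mouse promoters. Beyond the sequences shown, the windows of Hspb8 and Bag3 held a match downstream of the start, at 3 and 43, and 1 of the windows of Hspb6 held a match at -120. The letters GAAGTTTC, noticed only after the matches had been listed, were the match in Hspb1 at -117 and in Hspb6, Hspb8 and Bag3. They occurred in 1.21% of all promoters on either strand. A run of 3 alternating units was in 0 of the 7 windows and in 0.603% of all promoters. A match is a description of the sequence, and binding was not measured.

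Of the 8 genes, 3 were called higher in C26, against 19.4% of all genes, and 1 was called lower, against 14.5%. With a fold change above 4 as well, Hspb1 and Hspb7 were higher, against 1.76% of all genes, and Hspb3 was lower, against 1.73%. Bag3 was the third gene called higher. Hspb2, Hspb6, Hspb8 and Cryab did not pass the test. The median log2 fold change of the 8 genes was 1.34, beside -0.05 over all genes. In normalised TPM, C26 and Control did not overlap for 6 of the 8 genes, with C26 higher for 4 and lower for 2. Of all genes, 27% did not overlap with C26 higher and 26.5% with C26 lower.

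**Figure D1:**
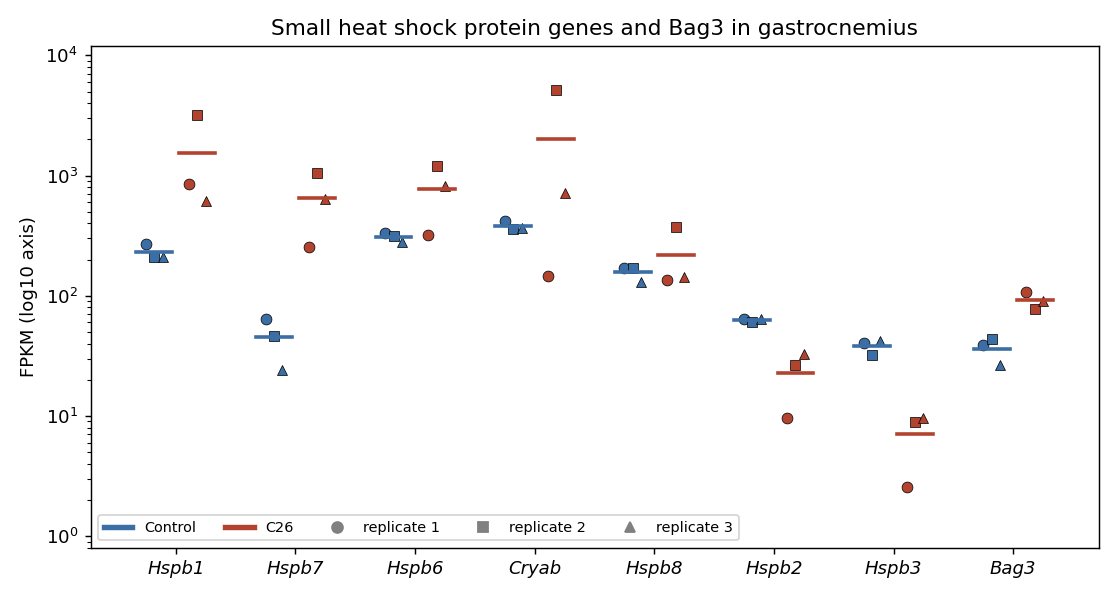
FPKM on a log10 axis of the 8 genes in each library, with Control in blue and C26 in red, the replicate shown by the symbol and the group mean by a bar. The 3 C26 libraries lie above all Control libraries for Hspb1, Hspb7 and Bag3 and below them for Hspb2 and Hspb3, and Cryab spans 147 to 5156 FPKM in C26.

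Hspb1 encodes HSP27, a stress-inducible chaperone that binds actin filaments and is phosphorylated by the kinase MAPKAPK2. The gene lies at chr5:135887919-135889563 on the plus strand of GRCm38 and has 3 exons. Hspb1 was at 271, 212 and 210 FPKM in the Control libraries and at 859, 3179 and 614 FPKM in C26 replicates 1, 2 and 3. The groups did not overlap, and C26 replicate 2 stood far above the others. Mean levels were 231 ± 34.4 FPKM in Control and 1551 ± 1416 FPKM in C26 (SD, n = 3 each). On the log2 scale of normalised TPM, on which all folds and log2 fold changes here are given, Hspb1 rose 6.01-fold, a log2 fold change of 2.59 (SE 0.56, limma adjusted p = 0.0163). Without C26 replicate 2 the log2 fold change was 1.91, and without Control replicate 1 the adjusted p was 0.0549.

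Hspb7 encodes cvHSP, a small heat shock protein of heart and skeletal muscle that binds filamin C. It lies at chr4:141420779-141425311 on the plus strand and has 3 exons. Control libraries held 64.4, 46.6 and 24.1 FPKM, and C26 libraries held 254, 1046 and 636 FPKM. The lowest C26 library was well above the highest Control library. The mean went from 45.0 ± 20.1 FPKM in Control to 645 ± 396 FPKM in C26 (SD, n = 3 each). The fitted change in normalised TPM was the largest among the 8 genes at 15.2-fold, a log2 fold change of 3.92 (SE 0.59, limma adjusted p = 0.00648). With each library left out in turn, the log2 fold change was 3.49 to 4.49 and Hspb7 was called in 6 of 6 fits. Hspb7 was less abundant than Hspb8 in every Control library and more abundant than Hspb8 in every C26 library.

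Hspb6 encodes HSP20, a small heat shock protein phosphorylated by protein kinase A, and lies at chr7:30552178-30555443 on the plus strand. Its FPKM were 332, 313 and 279 in Control and 320, 1195 and 818 in C26. C26 replicate 1 was at the Control level and the other C26 libraries were above it, while in normalised TPM the lowest C26 value, 566, was above the highest Control value, 529. Means were 308 ± 26.9 FPKM in Control and 777 ± 439 FPKM in C26 (SD, n = 3 each). The log2 fold change was 1.36 (95% interval 0.24 to 2.47, limma adjusted p = 0.0635), and Hspb6 was not called. It was called in 1 of 6 fits with a library left out, at 1.91 without C26 replicate 1 (adjusted p = 0.0149), and stood at 0.98 without C26 replicate 2 (adjusted p = 0.165). Among the 8 other settings it was called in 1.

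Cryab encodes alphaB-crystallin, a chaperone of the lens and of striated muscle that binds desmin. Cryab showed the widest spread between C26 mice of the 8 genes. It was at 418, 358 and 366 FPKM in Control and at 147, 5156 and 722 FPKM in C26. C26 replicate 1 was below every Control library while C26 replicate 2 was far above them, so that the highest C26 value was 35.2-fold the lowest, against 1.17-fold in Control. The log2 fold change was 1.32 with a 95% interval from -1.45 to 4.10 (limma adjusted p = 0.399), a range that holds no change as well as a large rise. It was 0.03 without C26 replicate 2 and 2.57 without C26 replicate 1, and neither value was called (adjusted p = 0.981 and 0.0762). By its mean, Cryab was the most abundant of the 8 genes in Control. In C26 its mean was the highest only with replicate 2, and without that library it was 434 FPKM, below Hspb1, Hspb6 and Hspb7.

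Markers of other cells were compared between the C26 libraries. Of the immune cell markers, the macrophage marker Cd68 stood at 422 normalised TPM in C26 replicate 2, against 61.7 and 12.2 in C26 replicates 1 and 3. None of the 6 other immune markers was highest there, and their sum was 118, 74.9 and 71.4 normalised TPM in C26 replicates 1, 2 and 3 and 116 to 1994 in Control, highest in replicate 3. Of the 7 markers 1 was called higher and 0 lower, beside 19.4% and 14.5% of all genes. It was the neutrophil gene S100a8, with a log2 fold change of 1.92 (limma adjusted p = 0.00859). S100a8 was at 3.40, 3.28 and 3.96 FPKM in C26 and 1.46, 0.20 and 0.50 FPKM in Control. Without C26 replicate 3, 2 markers were called higher, and without Control replicate 3, 1 was called lower. The sum of 8 slow fibre markers was 151 to 944 in C26 and 317 to 763 in Control, and 7 of the 8 had their lowest C26 value in replicate 2. The part of these cells in the level of Cryab was not tested.

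Hspb8 encodes HSP22, the small heat shock protein that binds BAG3 most closely, and lies at chr5:116408491-116422864 on the minus strand. It was at 171, 169 and 130 FPKM in Control and at 134, 375 and 143 FPKM in C26. The groups overlapped, and only C26 replicate 2 exceeded all Control libraries. The log2 fold change was 0.53 (95% interval -0.43 to 1.48, limma adjusted p = 0.331), and without C26 replicate 2 it was 0.08.

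Bag3 was the member with the closest agreement between C26 mice. The gene lies at chr7:128523616-128546981 on the plus strand and has 4 exons. Bag3 was at 38.7, 43.8 and 26.5 FPKM in Control and at 108, 78.1 and 90.1 FPKM in C26. No C26 library overlapped the Control libraries. Mean levels were 36.3 ± 8.91 FPKM and 92.2 ± 15.2 FPKM (SD, n = 3 each). On the log2 scale of normalised TPM, Bag3 rose 2.95-fold, a log2 fold change of 1.56 (SE 0.27, limma adjusted p = 0.00916). Bag3 was called in 6 of 6 fits with a library left out, between 1.31 and 1.78. The ratio of Hspb8 to Bag3 was 4.42, 3.86 and 4.90 in Control and 1.24, 4.81 and 1.58 in C26. The difference in mean log2 ratio was -1.05, which did not exceed the spread (two-sided exact permutation test, p = 0.3, where 3 against 3 libraries can give no p below 0.1). It was -1.64 without C26 replicate 2 and -0.66 without C26 replicate 1.

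Hspb3 and Hspb2 encode small heat shock proteins that form a complex with each other in differentiating muscle, and both had their lowest values in C26. Hspb3, at chr13:113662896-113663676 on the minus strand and with 1 exon, was at 40.7, 32.2 and 42.1 FPKM in Control and at 2.58, 8.85 and 9.58 FPKM in C26. Each C26 library was far below each Control library. The mean was 38.3 ± 5.37 FPKM in Control and 7.00 ± 3.85 FPKM in C26 (SD, n = 3 each). Hspb3 fell, with a log2 fold change of -2.32 (SE 0.45, limma adjusted p = 0.0126), so that the fitted level in Control was 4.98-fold that in C26. Without Control replicate 1 the adjusted p was 0.0517.

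Hspb2, at chr9:50751078-50752354 on the minus strand, was at 64.6, 60.3 and 63.5 FPKM in Control and at 9.68, 26.6 and 32.5 FPKM in C26. The Control libraries were close together and all C26 libraries were below them. Means were 62.8 ± 2.23 FPKM and 22.9 ± 11.8 FPKM (SD, n = 3 each). The log2 fold change of -1.38 (SE 0.44) missed the threshold at an adjusted p of 0.0514 from limma. Hspb2 was called lower under 5 of 8 other settings and in 2 of 6 fits with a library left out.

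Hspb2 and Cryab are neighbours in head-to-head orientation, and their spans in GENCODE share 1030 bases, with Cryab at chr9:50751325-50756636 on the plus strand. The starts of their main transcripts lie 613 bases apart, and 2 of 6 annotated Cryab transcripts begin inside Hspb2. Whether the counting used strand is not given in the sources used here, and reads from shared bases cannot then be told apart. The ratio of Hspb2 to Cryab was 0.155, 0.169 and 0.174 in Control and 0.0660, 0.00517 and 0.0450 in C26. Every C26 ratio was below every Control ratio. The mean log2 ratio was -2.60 ± 0.087 in Control and -5.33 ± 1.98 in C26 (SD, n = 3 each), and the difference of -2.73 gave p = 0.1 in a two-sided exact permutation test, the smallest p that 3 against 3 libraries allow. The difference was -1.60 without C26 replicate 2 and -3.44 without C26 replicate 1.

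**Figure D2:**
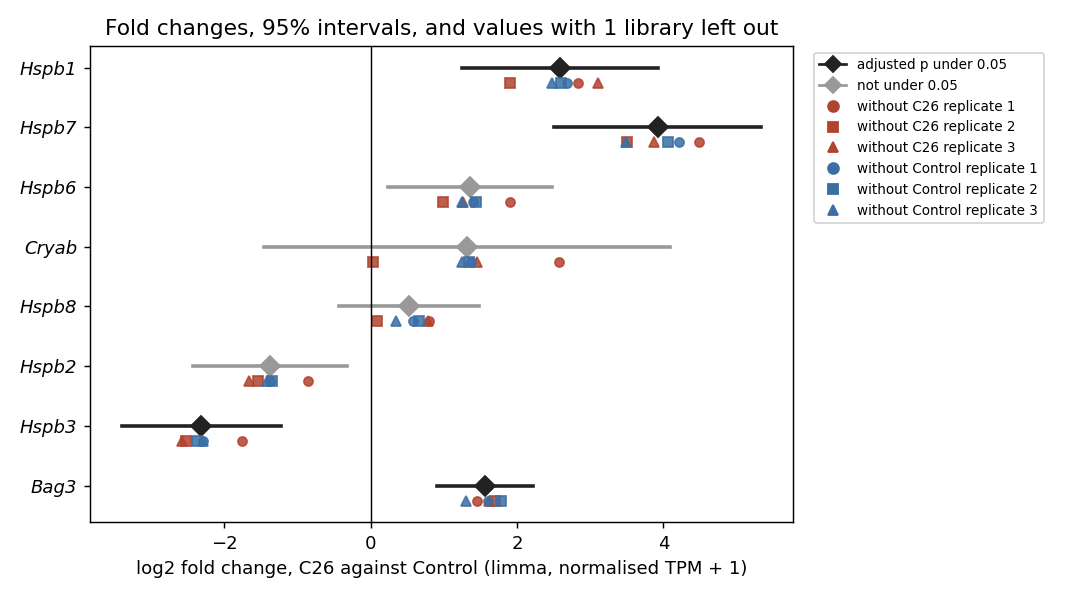
Log2 fold changes of C26 against Control for the 8 genes from limma on normalised TPM + 1, with 95% intervals as bars, black for an adjusted p under 0.05 and grey otherwise, and smaller symbols for fits with 1 library left out. Cryab moves from 0.03 to 2.57 between fits, while Bag3 stays between 1.31 and 1.78.

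By mean FPKM, the order of the genes in Control was Cryab, Hspb6, Hspb1, Hspb8, Hspb2, Hspb7, Hspb3 and Bag3. The ranges of neighbours did not overlap from Cryab down to Hspb2, and overlapped from Hspb2 to Bag3. In C26 the order was Cryab, Hspb1, Hspb6, Hspb7, Hspb8, Bag3, Hspb2 and Hspb3, and the first place of Cryab rested on replicate 2. Without that library the order was Hspb1, Hspb6, Hspb7, Cryab, Hspb8, Bag3, Hspb2 and Hspb3. With all C26 libraries the ranges of neighbours overlapped from Cryab to Hspb8 and were apart from Hspb8 down to Hspb3. The summed normalised TPM of the 8 genes was 2097, 2089 and 1649 in Control and 3248, 18945 and 5802 in C26.

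The spread between C26 mice was wider than between Control mice for 7 of the 8 genes, on the log2 scale, and Bag3 was the exception with an SD of 0.26 in C26 and 0.47 in Control. Over all genes the median SD was 0.21 in both groups. In C26 the SD of Cryab was 2.54, and the SDs of the other small heat shock protein genes lay between the 96.2th percentile of all genes for Hspb8 and the 99.0th for Hspb1. C26 replicate 2 was the highest C26 library for 5 genes and C26 replicate 1 the lowest for 6. Relative to the Control mean, Hspb7 was higher by 2.79, 4.78 and 4.21 on the log2 scale in C26 replicates 1, 2 and 3, and Cryab differed by -1.17, 3.91 and 1.22. The C26 libraries thus shared the direction of Hspb7 and not that of Cryab.

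**Figure D3:**
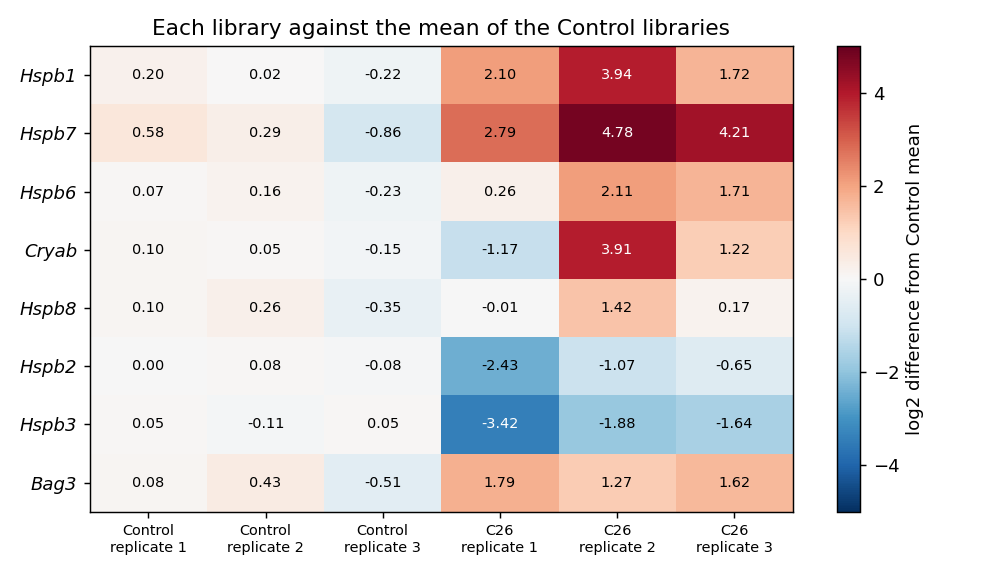
Log2 difference of each library (columns) from the mean of the Control libraries for the 8 genes (rows), with the value in each cell and red for higher. C26 replicate 2 holds the highest C26 value for Hspb1, Hspb7, Hspb6, Cryab and Hspb8, and Hspb3 is negative in all C26 libraries.

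The genes whose centred log2 values over the 6 libraries lay nearest to a member were listed as a description, for all members but Cryab. Nearest to Bag3 were the glycogen synthase gene Gys1 (Euclidean distance 0.166) and Garre1 (0.202). Gys1 was at 73.7, 91.2 and 49.5 FPKM in Control and at 204, 159 and 165 FPKM in C26. Nearest to Hspb7 were Lmod2 (1.28), which encodes the actin nucleator leiomodin 2, and the metallothionein gene Mt1 (1.39). Nearest to Hspb3 were the myogenic transcription factor gene Myod1 (0.662) and Mpp3 (0.793). Myod1 was at 14.6, 16.4 and 13.6 FPKM in Control and at 1.24, 3.36 and 4.12 FPKM in C26. For Hspb2 they were Ldb3 (0.606), which encodes a Z-disc protein, and Rab40b (0.611). For Hspb6 they were Rgcc (0.767) and Hbegf (0.772), and for Hspb1 Krt80 (0.666) and the acute phase gene Saa1 (0.676). Krt80 was at 1.03, 0.54 and 0.30 FPKM in Control and at 3.87, 13.5 and 1.56 FPKM in C26. Saa1 was at 0.23, 0.11 and 0.14 FPKM in Control and at 3.30, 7.87 and 1.11 FPKM in C26. At such low levels the 1 added to TPM shrinks log2 differences, so that these distances depend on it. Zfp9 (0.182) and Sel1l3 (0.190) were nearest to Hspb8.

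Of 18 genes for partners of BAG3 in selective autophagy, 9 were called higher, against 19.4% of all genes, and 0 lower, against 14.5%, with a median log2 fold change of 0.71 beside -0.05 over all genes. The autophagosome genes Gabarapl1 and Map1lc3b rose by 4.25 and 2.04 on the log2 scale. Sqstm1, which encodes the autophagy receptor p62, was at 406, 384 and 336 FPKM in Control and at 1415, 1137 and 989 FPKM in C26, a log2 fold change of 1.86 (limma adjusted p = 0.00259). Tsc1, a brake on mTOR signalling, rose by 1.82, and Dnajb6, an HSP40 co-chaperone of the Z-disc, rose by 1.25. Named beyond the rule as core partners after their values were seen, Hspa8 (constitutive HSC70) rose by 0.87 (adjusted p = 0.0438), while the ubiquitin ligase gene Stub1 was at -0.03 and Synpo2 at -1.77 (adjusted p = 0.913 and 0.0768). The 5 genes named first were called in 6 of 6 fits with a library left out, and Hspa8 in 1 of 6. Of the 18, 5 were called higher without Control replicate 1, and 5 higher and 1 lower with quantile normalization.

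Heat shock factor genes and other heat shock and chaperone genes, the mitochondrial chaperonins Hspd1 and Hspe1 included, numbered 20, of which 11 were called higher and 1 lower, beside 19.4% and 14.5% of all genes, with a median log2 fold change of 0.62 beside -0.05. Hsf1, the main heat shock factor gene, was at 20.3, 21.1 and 23.4 FPKM in Control and at 57.0, 65.0 and 28.4 FPKM in C26. It rose by 1.32 on the log2 scale (SE 0.28, limma adjusted p = 0.0161), with C26 replicate 3 nearest to Control, and it was called in 3 of 6 fits with a library left out. Of the 8 listed genes not called, Dnajb1 was at -0.006 and Hsp90aa1 at 0.18 on the log2 scale (limma adjusted p = 0.988 and 0.622). Hspa1a, an inducible HSP70 gene with a near-identical copy in Hspa1b, rose by 2.10, Hsp90ab1 by 1.47 and Hsf4 by 1.36. Hspa1a was low, at 1.09, 1.40 and 1.16 FPKM in Control and at 8.75, 10.2 and 2.75 FPKM in C26. The split of reads between Hspa1a and Hspa1b is uncertain. The gene called lower was Serpinh1, a collagen chaperone of the endoplasmic reticulum, which fell by 1.24. With a library left out, Hsp90ab1 was called in 6 of 6 fits, Serpinh1 in 5, Hspa1a in 4 and Hsf4 in 1. The count called higher rested on single libraries, with 3 called higher without C26 replicate 1, 4 without C26 replicate 2, 2 without Control replicate 1 and 7 without Control replicate 3. It also depended on the scaling, with 5 higher and 1 lower for FPKM as deposited and 7 higher and 2 lower for quantile normalization.

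The clients of small heat shock proteins in the sarcomere and cytoskeleton numbered 13 genes. Of these, 5 were called higher and 1 lower, beside 19.4% and 14.5% of all genes. The balance became 4 higher and 5 lower with FPKM as deposited and 3 higher and 4 lower with quantile normalization. The median log2 fold change was 0.07. Flnc, which encodes filamin C, rose by 3.77, the alpha-actinin gene Actn2 by 2.08, the Z-disc gene Myot by 1.31, the desmin gene Des by 0.72 and Lmna by 0.64. Vim, the intermediate filament gene of mesenchymal cells, fell by 2.25, and 4 of 7 fibroblast markers were called lower, beside 14.5% of all genes. The fibroblast count was 3 with the replicate block and without C26 replicate 1, C26 replicate 2, Control replicate 1 or Control replicate 2. It was 5 with quantile normalization and without C26 replicate 3 or Control replicate 3, and 7 with FPKM as deposited. The part of fibroblasts in the level of Vim was not tested. With a library left out, Flnc, Actn2 and Vim were called in 6 of 6 fits, Myot in 5, and Des and Lmna in 3. The clients called higher numbered 3 without C26 replicate 1, 3 without C26 replicate 2 and 2 without Control replicate 1, and those called lower numbered 4 without C26 replicate 3 and 2 without either Control replicate 2 or 3.

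Of 10 genes for kinases that phosphorylate small heat shock proteins, 1 was called higher and 1 lower, no more than the 19.4% and 14.5% of all genes. With FPKM as deposited or quantile normalization 0 were called higher, and with a pseudocount of 0.1 or the replicate block 0 were called lower. Mapkapk2, the kinase of HSP27, rose by 0.96, and Prkaca, the catalytic subunit of protein kinase A that acts on HSP20, fell by 0.72. Each was called in 2 of 6 fits with a library left out, and neither without C26 replicate 1, C26 replicate 2 or Control replicate 1. The count of kinases called higher was 2 without C26 replicate 3 or without Control replicate 2. Of 5 other BAG family genes, Bag5 and Bag6 rose by 1.39 and 1.005 and 0 were called lower, and 1 was called higher with FPKM as deposited, with quantile normalization, or without Control replicate 1, C26 replicate 1, C26 replicate 2 or Control replicate 3.

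**Figure D4:**
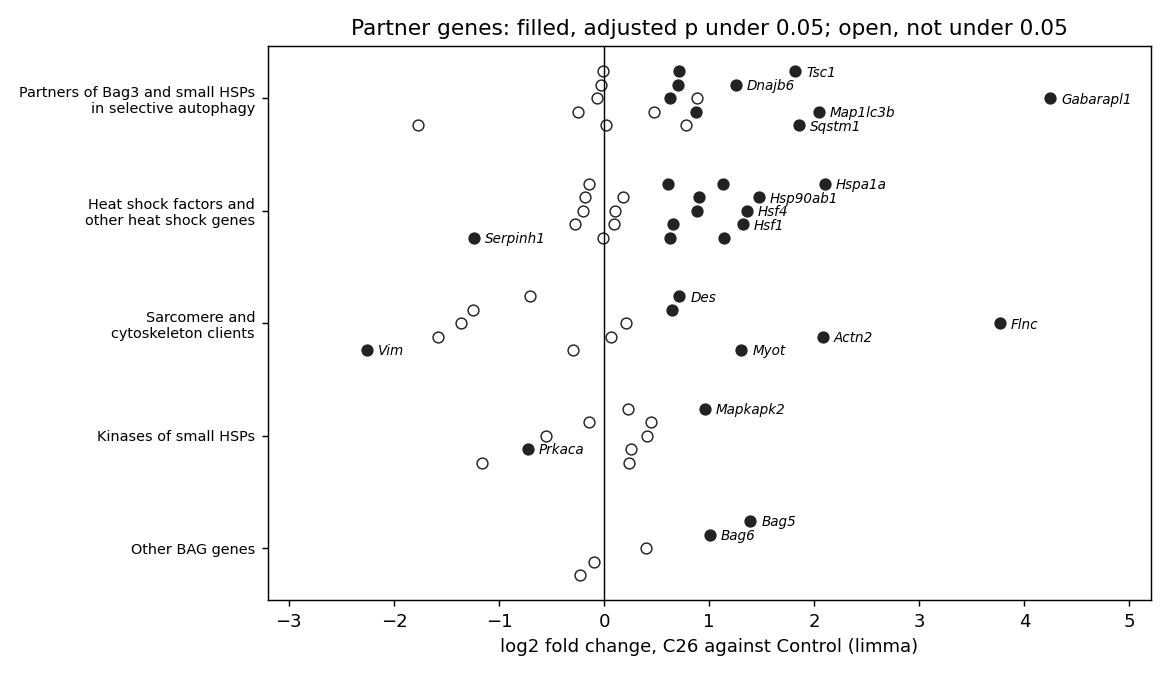
Log2 fold changes of C26 against Control from limma for the genes of 5 lists (rows), filled for an adjusted p under 0.05 and open otherwise, with up to 5 called genes of each list named. Gabarapl1 at 4.25 and Flnc at 3.77 lie farthest to the right, and Vim at -2.25 farthest to the left.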

How the data were processed

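Gastrocnemius RNA of 3 C26 and 3 Control mice was depleted of rRNA with RNase H, primed at random and read as single ends of 50 bases on a BGISEQ-500. The authors removed adaptor, low-quality and rRNA reads, aligned to GRCm38.p5 with bowtie2 and deposited FPKM estimated by RSEM. For their own analysis they state that they kept the highest transcript variant of a gene. The submitters' processing notes list mm9, HISAT2 2.0.4, Bowtie2 2.2.5 and RSEM 1.2.12, and the labels' extraction text also names infected THP-1 cells, a human monocytic line, although the tissue label is muscle.

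FPKM were rescaled to TPM, normalised by the trimmed mean of M-values (30% of log ratios and 5% of levels trimmed) and fitted as log2(TPM + 1) with limma 3.58.1 under R 4.3.3, with Benjamini-Hochberg adjustment. Every listed gene entered the fit, and 13327 had a symbol. The fit was tested on simulated data. Mean ± SD is of FPKM. Ratios were compared by exact permutation with scipy 1.17.1. Symbols came from Entrez identifiers, gene positions from GENCODE vM21 and promoters from RefSeq. Depth is unknown, so no counting interval was given. The labels give separate samples, and the p-values measure the spread between them.

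The members and gene lists were chosen with earlier results of these data known. Named were the 8 members, up to 5 genes of each list with the largest change among those called, Hsf1, and the 2 genes nearest to each member among genes with a mean TPM of at least 1. Those nearest to Cryab are not reported here. Beyond that rule, Ckm, Myh4, Myh1, Myh2, Atp2a1, Cd68, S100a8, Hba-a1, Hbb-bs, Hspd1 and Hspe1 were named after their values were seen. So were Lmna, Hspa8, Stub1, Synpo2, Dnajb1 and Hsp90aa1. Alternatives were to leave out each library, to block on the replicate number, to let the prior variance follow intensity, to drop the trimmed-mean scaling, to fit FPKM without rescaling or after quantile normalization, to require a mean TPM of at least 1, and to use a pseudocount of 0.1. Scaling without the 20 most abundant genes was added after seeing the data. Promoter windows of Hspb2 and Cryab, and Cryaa, Hspb9 and Odf1, were not analysed here.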

Additional observations from a re-analysis of the deposited data

How the results depend on the processing

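No log2 fold change of the 8 genes changed sign under any setting run. The number called higher was 3 or 4 under the 8 alternatives, 4 being under scaling without the 20 most abundant genes (Hspb6, adjusted p = 0.0442), and 2 to 4 with a library left out. The number called lower was 2, with Hspb2 added, at a mean TPM of at least 1, without trimmed-mean scaling, with FPKM as deposited, with quantile normalization and with an intensity trend, where the adjusted p of Hspb2 was 0.0280 to 0.0464, and it was 0 to 2 with a library left out. With a fold change above 4, 1 to 2 genes were called higher and 0 to 1 lower when a library was left out, the lower counts being without C26 replicate 2 (Hspb1), without C26 replicate 1 (Hspb3) or without Control replicate 1 (both). The cause was not tested. Without Control replicate 1, 1877 genes were called in all, and without C26 replicate 1, 1796, against 4521 in the full fit. With the replicate number as a block, 3 of the 8 genes were called higher and 1 lower, and 3074 genes in all. Deviations of same-numbered libraries correlated at -0.039, -0.084 and -0.112 across genes, so the numbers were not taken to pair the mice. No setting shifted the median of all genes by more than 0.098. With 3 libraries a group and unknown depth, the interval of Cryab stayed too wide to separate no change from a large rise.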

Other observations

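Among markers of other cells, 4 of the 4 listed erythroid genes were called higher in C26, beside 19.4% of all genes, and their summed level was 1053 to 2248 normalised TPM in C26 and 475 to 761 in Control. The count was 1 without C26 replicate 1 or Control replicate 1, and 2 without Control replicate 2 or 3, with quantile normalization and with the replicate block. The hemoglobin gene Hba-a1 was at 288, 228 and 191 FPKM in Control and at 404, 362 and 675 FPKM in C26. Its near-identical copy Hba-a2 makes the split between them uncertain, and the sum was nearly all from these genes. The hemoglobin gene Hbb-bs was near the floor, at 0.21, 0.60 and 0.19 FPKM in Control and at 0.88, 1.14 and 0.97 FPKM in C26. Of 8 adipocyte markers 6 were called lower, beside 14.5% of all genes, with sums of 513 to 904 in C26 and 1073 to 8234 in Control. That count was 0 without C26 replicate 1, C26 replicate 2 or Control replicate 2, 1 without Control replicate 1, 4 without C26 replicate 3 and 8 without Control replicate 3.

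Of 7 Schwann cell markers 2 were called lower and of 7 endothelial markers 2, beside 14.5% of all genes. The Schwann cell count was 1 without any single C26 library or Control replicate 3, 0 without Control replicate 1 and 3 without Control replicate 2, and also 1 without trimmed-mean scaling, with quantile normalization, with the replicate block and with scaling that left out the 20 most abundant genes. The endothelial count was 0 without C26 replicate 1, C26 replicate 2, Control replicate 1 or Control replicate 2, 1 without C26 replicate 3 and 4 without Control replicate 3, and 1 under 7 of the 8 other settings. Satellite cell, slow fibre and cardiac markers held no call in 4, 8 and 3 listed genes with all libraries, and at most 1 under any other setting. Of 8 smooth muscle and pericyte markers 1 was called higher, Des, which is abundant in muscle fibres, and 1 lower, and 0 were called either way without C26 replicate 1, C26 replicate 2 or Control replicate 1. The count called lower was 3 with FPKM as deposited and without C26 replicate 3, 2 without Control replicate 3 and under 5 of the 8 other settings, and 0 with the replicate block, and the count called higher was 0 with quantile normalization and with an intensity trend.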
